A study of Mus musculus with 6 samples.

Results

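The MHC class II antigen presentation genes and their transactivator Ciita were followed here in intestinal epithelial cells that either carried or lacked caspase-8. The members were taken by gene symbol: every probe set annotated to H2-Aa, H2-Ab1, H2-Eb1, H2-DMa, Cd74 or Ciita, and the probe sets shared by H2-DMb1 and H2-DMb2. This gave 16 of the 45037 probe sets on the array that are not the manufacturer's controls, covering 8 genes. The genes were chosen knowing that several of them were lower in the caspase-8 deleted cells, so their differences are given as descriptions without a test. All 6 C57BL/6 animals carried the floxed casp8 gene. The 3 control mice were negative for the villinCre transgene and the 3 deleted mice were positive for it, and each animal gave 1 array. Villin-driven Cre is active in the gut epithelium, so immune cells in the same preparation keep their caspase-8. The sources used here name no age, sex, gut segment or purity of the preparation.

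MHC class II molecules are pairs of an alpha and a beta chain that carry peptides of engulfed proteins to the cell surface, where CD4+ T cells read them. In mice of the C57BL/6 strain the pair at the surface is I-A, made from H2-Aa and H2-Ab1, because the partner of the beta chain H2-Eb1, H2-Ea, is defective in this strain. The invariant chain Cd74 escorts new class II molecules, and H2-DM, made from H2-DMa and H2-DMb, exchanges the last piece of Cd74 for a peptide. Dendritic cells, macrophages and B cells make class II constantly, while intestinal epithelial cells make it mainly when interferon gamma switches on Ciita. Ciita does not bind DNA itself. It docks on RFX, CREB and NF-Y proteins that sit on the X, X2 and Y boxes in front of class II genes.

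Promoter stretches are printed to show where letters of these boxes occur in members and in other class II genes. RefSeq start-site windows of build GRCm38.p6 (250 bases before to 50 after the start) were matched for 5 of the 8 member genes. The stretches below run from 125 to 26 bases before the start, 5′ to 3′ on the gene's strand. Capitals mark matches to TGATTGG (the Y box), to AACNNATGA or to TGACGTCA (the cAMP response element, the sequence CREB binds). AACNNATGA covers the end of an X box and at most the first letters of a linked X2 box. H2-Oa and H2-Ob, which are no members, are shown for comparison.
H2-Aa (chr17:34287849-34287948, minus strand): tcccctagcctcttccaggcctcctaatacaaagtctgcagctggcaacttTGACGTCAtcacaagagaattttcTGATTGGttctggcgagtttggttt
H2-Eb1 (chr17:34305742-34305841, plus strand): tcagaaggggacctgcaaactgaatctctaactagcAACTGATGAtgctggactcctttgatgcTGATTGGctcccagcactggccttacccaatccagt
H2-DMb1 (chr17:34153066-34153165, plus strand): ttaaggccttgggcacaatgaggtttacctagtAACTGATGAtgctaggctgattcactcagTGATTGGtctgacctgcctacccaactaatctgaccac
H2-DMb2 (chr17:34145124-34145223, plus strand): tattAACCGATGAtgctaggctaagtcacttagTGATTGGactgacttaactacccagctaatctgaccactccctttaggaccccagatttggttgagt
H2-Oa (chr17:34092254-34092353, plus strand): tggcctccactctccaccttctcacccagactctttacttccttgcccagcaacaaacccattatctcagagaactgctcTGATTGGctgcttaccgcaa
H2-Ob (chr17:34238780-34238879, plus strand): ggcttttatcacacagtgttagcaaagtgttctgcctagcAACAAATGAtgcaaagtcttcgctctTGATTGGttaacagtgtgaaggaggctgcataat

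On both strands, TGATTGG was found in 7.82% of the 32851 start-site windows of the table, AACNNATGA in 2.85% and TGACGTCA in 1.79%. TGATTGG and AACNNATGA occurred together in 101 windows (0.307%). Of these, 4 belonged to class II genes, H2-Eb1, H2-DMb1, H2-DMb2 and H2-Ob, where 19, 20, 20 and 17 bases lay between the matches. In H2-Aa the Y box began 50 bases before the start and the cAMP response element 74 bases before it. H2-Aa held no match to AACNNATGA, and neither of the 2 H2-DMa windows held any of the 3 motifs. The motifs were chosen after these sequences had been read, and a match is a string of letters, not a bound site. A missing match to such a string does not show that a box is absent. H2-Oa, H2-Ob and H2-Eb2, none of them members, carry the Y box as well, and their values are given further down.

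The arrays were checked against the label first. The deposited values are log2 expression, so a difference of 1 is a doubling. The targeted gene Casp8 read 10.53, 9.74 and 10.24 on control arrays against 9.27, 9.56 and 10.40 on deleted arrays (−0.43, SE 0.31, limma adjusted p = 0.57). The groups overlapped, with deleted replicate 3 inside the control range. The labels do not name the removed exons, so its 1 probe set does not check the genotypes. The cause of the overlap was not tested. Epcam, a surface protein of epithelia, stood at 13.17 to 13.29 on control arrays against 13.31 to 13.42 on deleted arrays, and Vil1, which encodes villin, at 12.58 to 12.59 and 12.84 to 12.89. Of 12 epithelial marker genes 0 passed the test (limma, adjusted p of 0.05), with 1 lower and 2 higher at an unadjusted p under 0.05, and 4 of the 12 had negative differences. The smallest p was that of Cdx1, a transcription factor of the gut epithelium, at −0.48 (limma adjusted p = 0.26), with groups that did not overlap. Cdx1 was the 1 of the 12 that separated the groups with lower deleted arrays, and 5 separated them with higher deleted arrays. Of all 45037 probe sets, 4389 and 4529 did so. The 3′ minus 5′ difference of Gapdh, a measure of RNA degradation, stood at 0.68 for control replicate 1 and 0.93 for control replicate 2, against 0.21 to 0.29 on the other 4 arrays. The members' median, the Ciita and Mrc1 differences and the counts of calls are given with and without those controls. Most other values come from all 6 arrays only.

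Class II expression was about 3-fold to 4.6-fold lower in the deleted cells across the alpha and beta chains, the invariant chain and both H2-DM subunits, by the brightest probe set of each gene. Of the 16 probe sets, 15 lay lower on every deleted array than on any control array, and 13 were at least 2-fold lower. Among all 45037 probe sets, 9.75% separated in that way and 0.504% were at least 2-fold lower. The median difference of the members was −1.78 on the log2 scale, against 0.012 for all probe sets. In bulk RNA, fewer class II positive cells and less class II RNA per cell cannot be told apart. Past an adjusted p of 0.05 in the fit over all probe sets lay 5 of the 16, against a background of 0.211% of probe sets called lower. Since the members were picked on this contrast, nothing is read from that count. Probe sets of the same gene also measure the same transcript, so the 16 are not 16 independent observations.

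**Figure D1:**
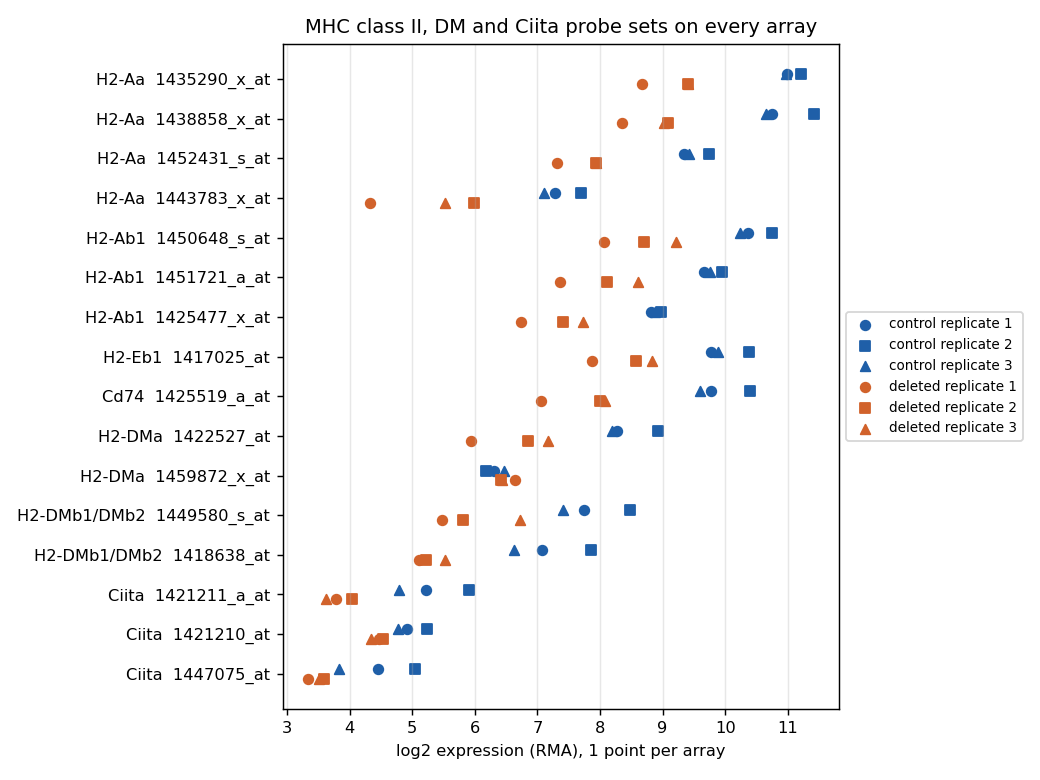
Log2 expression (x axis) of the 16 member probe sets (y axis, gene and probe set name) on each of the 6 arrays, with controls in blue, deleted arrays in orange and a marker shape for each replicate number. All but the second H2-DMa probe set (1459872_x_at) separate the groups. Control replicate 2 is the highest control in 15 of the 16, and deleted replicate 1 the lowest deleted array in 13.

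H2-Aa, the alpha chain of I-A, read 10.99, 11.21 and 10.97 on control arrays 1, 2 and 3 against 8.68, 9.40 and 9.40 on deleted arrays 1, 2 and 3, by its brightest probe set (1435290_x_at). Values of other genes are given in the same order. The control mean was 11.06 ± 0.13 and the deleted mean 9.16 ± 0.42 (SD, n = 3), a log2 difference of −1.90 (SE 0.21), or 3.72-fold. The 3 controls lay within a narrow band, and the nearest deleted array was 1.57 below the lowest of them. The other 3 probe sets of H2-Aa stood at −2.13, −2.09 and −1.77. The widest scatter was that of 1443783_x_at, where deleted replicate 1 read 4.33 and the other deleted arrays 5.98 and 5.52.

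H2-Ab1 encodes the beta chain that pairs with H2-Aa. Its probe set 1450648_s_at read 10.36, 10.75 and 10.23 on control arrays against 8.07, 8.70 and 9.21 on deleted arrays, a difference of −1.79 (SE 0.28), or 3.45-fold. The deleted arrays were spread over more than a log2 unit, yet the highest of them stayed 1.02 below the lowest control. Its other probe sets stood at −1.59 and −1.77. H2-Eb1, the beta chain of I-E, read 9.77, 10.38 and 9.88 on control arrays against 7.88, 8.58 and 8.82 on deleted arrays. Its difference of −1.58 (SE 0.26), or 3.00-fold, was the smallest of the 3 chains by their brightest probe sets, and its SE spans most of the distance to the other chains. Both beta chains had the same order of deleted arrays, with replicate 1 lowest and replicate 3 highest.

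Cd74, the invariant chain, had the largest difference of the members. It read 9.78, 10.40 and 9.59 on control arrays against 7.06, 8.0 and 8.07 on deleted arrays. The mean moved from 9.92 ± 0.42 to 7.71 ± 0.56 (SD, n = 3), a difference of −2.21 (SE 0.30), or 4.64-fold. Control replicate 2 stood 0.62 or more above the other controls, and deleted replicate 1 lay 0.94 or more below the other deleted arrays, while the gap between the groups was 1.52.

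The peptide editor H2-DM showed the same pattern in both subunits. H2-DMa read 8.28, 8.93 and 8.19 on control arrays against 5.94, 6.85 and 7.17 on deleted arrays by probe set 1422527_at, a difference of −1.81 (SE 0.32), or 3.51-fold. Its second probe set, 1459872_x_at, differed by 0.18 (SE 0.13), with controls at 6.17 to 6.47 and deleted arrays at 6.42 to 6.64, and the groups overlapped. The probe set shared by H2-DMb1 and H2-DMb2, near-identical genes that lie side by side, read 7.07, 7.85 and 6.62 on control arrays against 5.10, 5.22 and 5.51 on deleted arrays (1418638_at, −1.90, SE 0.29). The other shared probe set stood at −1.88 (SE 0.36). Of the probe sets assigned to H2-DMb2 alone, which are no members, 1443687_x_at stood at −0.40, 1443686_at at −0.36 and 1419744_at at −0.01. The annotation gave no probe set to H2-DMb1 alone, so the share of either gene in the common signal is not known.

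Ciita, the transactivator, was dim. Its 3 probe sets averaged below the median of all probe sets on the array. There the RMA summary used by the authors can pull values together and understate changes, which was not measured here. The probe set 1421211_a_at read 5.22, 5.90 and 4.79 on control arrays against 3.78, 4.03 and 3.62 on deleted arrays, a difference of −1.49 (SE 0.26), or 2.82-fold. The others stood at −0.97 (SE 0.27, 1447075_at) and −0.53 (SE 0.14, 1421210_at). In all 3 the groups did not overlap and control replicate 2 was highest, as for the class II chains, but the smallest gap between groups was 0.25. The Ciita differences were smaller without the controls that had the larger Gapdh difference. With control replicates 1 and 2 left out they were −0.98, −0.36 and −0.33, and with the Gapdh difference as a covariate −0.97, −0.39 and −0.31. The array does not tell apart the transcripts that start from different Ciita promoters.

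Within each group the members moved in step. Control replicate 2 was the highest control in 15 of 16 member probe sets, against 37.5% of all probe sets, and deleted replicate 1 the lowest deleted array in 13 of 16, against 38.1%. For the 12 probe sets other than Ciita and 1459872_x_at, deviations from the control mean ran from 0.09 to 0.67 in control replicate 2 and from −3.04 to −2.08 in deleted replicate 1. They ran from −2.06 to −1.39 in deleted replicate 2 and from −1.93 to −1.15 in deleted replicate 3. All 12 thus stood more than 1 log2 unit below the control mean on each deleted array. This holds for the 12 only, since the probe sets left out are those with smaller or opposite differences. Ciita stood at −1.49, −0.97 and −0.53 and 1459872_x_at at 0.18. Among the 12, the highest value of deleted replicate 1 was about equal to the lowest of deleted replicate 2.

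The number of members called depended on single arrays, while the size of their differences moved less. The count of 5 became 0 without control replicate 1, control replicate 2, deleted replicate 2 or deleted replicate 3, 1 without control replicate 3 and 8 without deleted replicate 1. The median difference stayed between −2.02 and −1.48 over the same 6 fits. Without control replicates 1 and 2 it was −1.55, with a count of 0, and with the Gapdh covariate −1.56, also with a count of 0. With probe sets prone to bind related sequences left out (names ending in _x_at or _s_at, 8 of the 16), the median was −1.68 and the count 1 of 8, which was Cd74.

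The list of other class II genes had 5 measured by probe sets that are no members, H2-Oa, H2-Ob, H2-Eb2, H2-Ea and H2-DMb2, which is also a member through the shared probe sets. Of these 0 passed (limma, adjusted p of 0.05), with 0 at an unadjusted p under 0.05. H2-Ob, the beta chain of the H2-DM inhibitor H2-O found mostly in B cells, read 4.01, 3.30 and 5.28 on control arrays against 3.47, 3.74 and 3.21 on deleted arrays (−0.73, SE 0.43, adjusted p = 0.496). H2-Oa, its alpha chain, read 5.11, 5.50 and 6.05 against 5.14, 5.14 and 5.08 (−0.43, SE 0.22, adjusted p = 0.42). In both, control replicate 3 was the high array and the groups overlapped. For H2-Oa, control replicate 1 lay inside the deleted range and control replicate 2 above it, at 5.50 against at most 5.14. Control replicate 3 was the highest control in 5 of these 5 genes and in 1 of the 16 members. H2-Ea, which RefSeq lists as a transcribed pseudogene, differed by 0.16, −0.24 and 0.12 by its 3 probe sets, with overlapping groups.

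**Figure D2:**
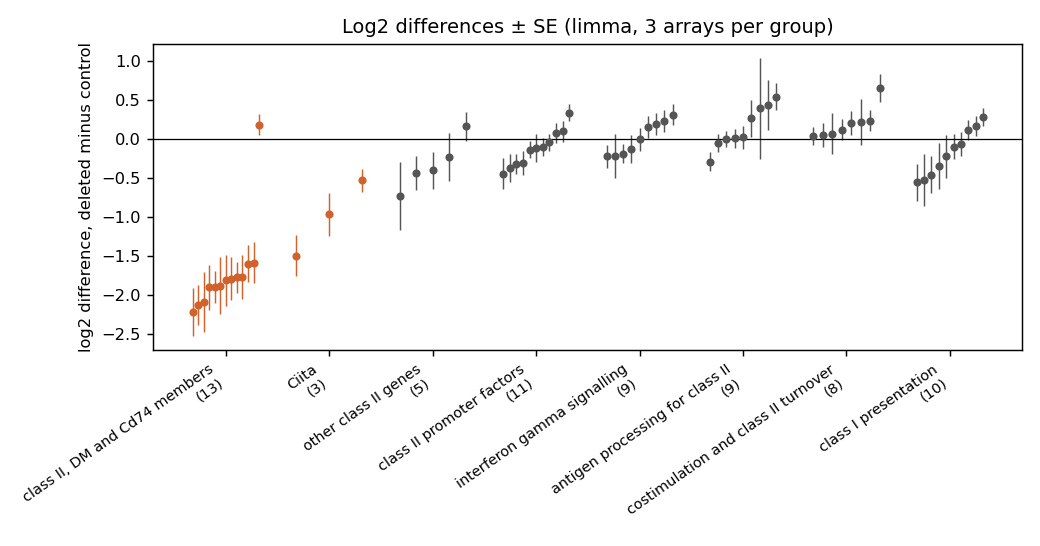
Log2 differences, deleted minus control (y axis), for the member probe sets in orange and for the genes of 6 pathway lists in grey, with bars for the SE from limma and the number of probe sets or genes in brackets. The members other than 1459872_x_at lie between −2.21 and −0.53, and the 52 pathway genes between −0.73 and 0.65.

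The genes around class II in its pathway were taken from 6 lists with 54 genes, of which 52 were measured. In limma 0 of 52 passed, against a background of 0.286% of 18193 genes called lower and 0.154% called higher. At an unadjusted p under 0.05, 3 were lower and 4 higher. Whether a gene's change differed from that of the members was not tested.

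Of the 11 promoter factors through which Ciita works, 0 passed. Rfx5, the DNA-binding subunit of RFX, read 7.01, 7.38 and 6.67 on control arrays against 6.56, 6.77 and 6.40 on deleted arrays (−0.44, SE 0.19, limma adjusted p = 0.357). Rfxank, another RFX subunit, stood at 0.34 (adjusted p = 0.254), and Creb1, which binds the X2 box, at −0.32 (adjusted p = 0.326), with its other probe sets between −0.09 and 0.38. Control replicate 2 was the highest control for Rfx5, but also in 9 of the 11 factors, so this is not particular to Rfx5. The range of Rfx5 in the controls overlapped that of the deleted arrays.

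Of 9 genes of interferon gamma signalling, the main inducer of Ciita in epithelium, 0 passed in limma, with 0 at an unadjusted p under 0.05. The receptor chains Ifngr1 and Ifngr2 stood at 0.31 and 0.23 and the feedback inhibitor Socs1 at −0.19 (adjusted p = 0.355, 0.511 and 0.522). Irf1, a transcription factor induced by interferon gamma, read 10.30, 10.83 and 10.12 on control arrays against 10.36, 10.29 and 10.22 on deleted arrays. Control replicate 2 was thus the high array for Irf1 as well, but the remaining 5 arrays lay within 0.24 of one another. The same array was the highest control in 6 of the 9 genes. The cytokine gene Ifng itself read 3.64, 4.51 and 3.37 on control arrays against 3.37, 3.71 and 3.80 on deleted arrays, again with control replicate 2 highest and the groups overlapping.

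Of 9 genes that process antigen for class II, 0 passed, with 1 lower and 1 higher at an unadjusted p under 0.05. The asparagine endopeptidase Lgmn stood at 0.54, the protease inhibitor Cst3 at −0.29 and cathepsin L, Ctsl, at 0.44 (limma adjusted p = 0.24, 0.347 and 0.573). Ctss, the cathepsin that degrades Cd74 in many antigen presenting cells, read 11.30, 11.19 and 11.38 on control arrays against 11.30, 11.43 and 11.16 on deleted arrays. Its difference was 0.008 (95% confidence interval −0.27 to 0.29). Of 8 genes of costimulation and class II turnover 0 passed, with 1 at an unadjusted p under 0.05. Pdcd1lg2, which encodes the PD-1 ligand PD-L2, stood at 0.65, the ubiquitin ligase Marchf8 at 0.23 and the costimulator Icosl at 0.20 (limma adjusted p = 0.194, 0.47 and 0.573).

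MHC class I presents peptides made inside the cell and shares the interferon response with class II. Of 10 class I genes 0 passed in limma, with 1 lower and 1 higher at an unadjusted p under 0.05, and the median difference was −0.16. The heavy chain H2-D1 stood at 0.28, and the immunoproteasome subunits Psmb8 and Psmb9 at −0.56 and −0.46 (adjusted p = 0.326, 0.346 and 0.428). Nlrc5, the class I counterpart of Ciita, read 6.78, 8.02 and 7.36 on control arrays against 6.37, 7.23 and 6.98 on deleted arrays (−0.53, adjusted p = 0.514). In 9 of the 10 genes control replicate 2 was the highest control and in 8 deleted replicate 1 the lowest deleted array.

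Several class I genes sit inside the class II block of chromosome 17, which allowed neighbours to be compared. From H2-Oa to H2-Eb2, RefSeq places 15 genes, of which 13 were measured by a probe set of their own. The 5 that are not class II genes, Brd2, Psmb9, Tap1, Psmb8 and Tap2, ran from −0.56 to −0.22, and 0 of them passed in limma. Tap1, a subunit of the peptide transporter for class I, read 8.42, 9.49 and 8.44 on control arrays against 8.38, 8.60 and 8.70 on deleted arrays. H2-DMa lay between neighbours at −0.29 (Brd2) and −0.40 (H2-DMb2). H2-Ab1, H2-Aa and H2-Eb1 followed one another, between H2-Ob at −0.73 and H2-Eb2 at −0.23. By single-gene probe sets, H2-DMa, H2-Ab1, H2-Aa and H2-Eb1 differed by more than 1 and the other genes of the block by less. The probe sets shared by H2-DMb1 and H2-DMb2, which lie in the same block, stood at −1.90 and −1.88. Cd74 and Ciita lie on other chromosomes.

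**Figure D3:**
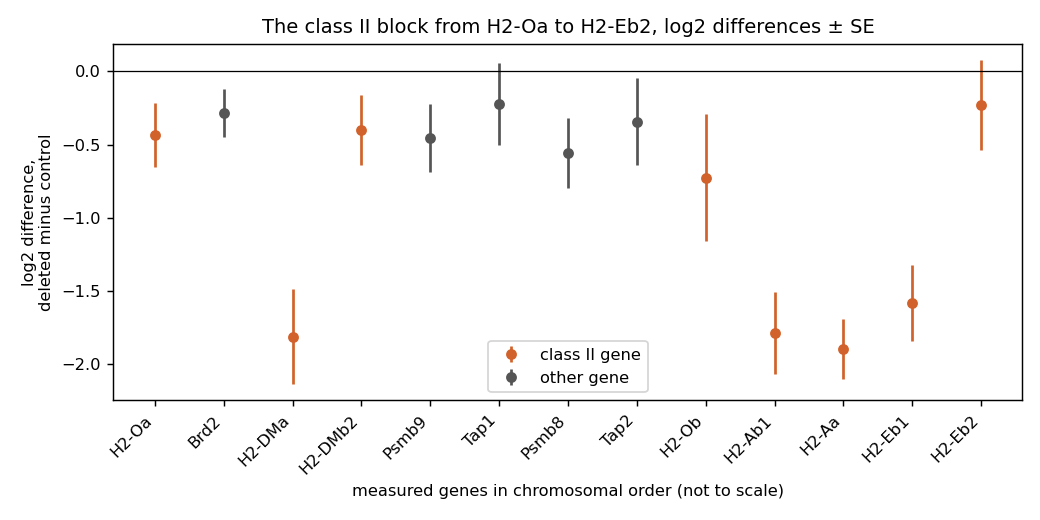
Log2 differences, deleted minus control, with SE (y axis) for 13 measured genes in chromosomal order from H2-Oa to H2-Eb2 (x axis, not to scale), each by its brightest probe set of 1 gene, so that the probe sets shared by H2-DMb1 and H2-DMb2 are not drawn. Class II genes are orange and other genes grey. H2-DMa, H2-Ab1, H2-Aa and H2-Eb1 lie at or below −1.58, and the other 9 genes between −0.73 and −0.22.

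Cells other than epithelium also make class II, so their markers were set beside the members. Of 10 B cell genes 0 passed in limma, with 1 at an unadjusted p under 0.05. Their mean level was 4.26 to 5.17 on control arrays against 4.21 to 4.28 on deleted arrays, and control replicate 3 was the highest control in 10 of 10. Like Ciita, 8 of the 10 averaged below the median of all probe sets, where changes can be understated. Ms4a1, the B cell antigen CD20, read 4.68, 4.17 and 6.56 on control arrays against 4.44, 4.34 and 4.01 on deleted arrays (−0.87, SE 0.53, limma adjusted p = 0.502). Cd79b, part of the B cell receptor, had the smallest p and read 5.81, 5.75 and 6.73 against 5.22, 5.22 and 5.36, with groups that did not overlap (−0.83, SE 0.25, limma adjusted p = 0.215). Its partner Cd79a stood at −0.35 (adjusted p = 0.524). The B cell markers and H2-Ob were highest on control replicate 3, where 11 of the 16 members had their lowest control value. The members' median difference was −1.85 without control replicate 3. The part of B cells in the class II difference was not tested.

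Of 8 dendritic cell genes 0 passed, with 0 at an unadjusted p under 0.05 (limma). Their mean level was 4.84 to 5.20 on control arrays against 4.98 to 5.13 on deleted arrays, so that the deleted arrays lay inside the control range. Again 5 of the 8 averaged below the median of all probe sets. Itgax, which encodes CD11c, read 6.31, 7.38 and 6.37 on control arrays against 6.31, 6.53 and 6.49 on deleted arrays. Of 12 macrophage genes 1 rose, the mannose receptor Mrc1, from 5.52 ± 0.19 to 6.59 ± 0.02 (SD, n = 3, difference 1.06, SE 0.13, limma adjusted p = 0.0224). Leaving out control replicate 1 or 2 or deleted replicate 2 or 3 ended this call, at adjusted p = 0.0976 to 0.137, and so did the replicate number as a block, at adjusted p = 0.0567. With the Gapdh covariate the Mrc1 difference was 0.92 (limma adjusted p = 0.196), and with control replicates 1 and 2 left out it was 0.86. The mean level of the macrophage genes was 5.22 to 5.84 on control arrays against 5.52 to 5.75 on deleted arrays. Csf1r, the receptor for the macrophage growth factor, stood at −0.13 (adjusted p = 0.904).

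General leukocyte genes had negative mean deviations on the deleted arrays. Of 5 measured 0 passed in limma, also at an unadjusted p under 0.05, and the mean deviation from the control mean was −0.54, 0.36 and 0.17 on control arrays against −0.85, −0.32 and −0.29 on deleted arrays. Ptprc, which encodes the leukocyte antigen CD45, read 9.50, 10.14 and 10.09 on control arrays against 9.03, 9.66 and 9.63 on deleted arrays (−0.47, SE 0.23, adjusted p = 0.404). Its second, dimmer probe set, not counted above, stood at −1.10 (limma unadjusted p = 0.0211, adjusted p = 0.265). There the groups did not overlap, as in 9.75% of all probe sets in that direction. Of 9 T cell genes 0 passed, and Cd3e, a chain of the T cell receptor complex, stood at −0.22 (adjusted p = 0.582). Leukocyte and T cell means were lowest on deleted replicate 1, the array with the lowest class II values, and highest on control replicate 2. The part of these cells in the class II difference was not tested. Of 5 innate lymphoid cell genes, only Il7r and Ncr1 were matched, too few to describe that cell type.

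**Figure D4:**
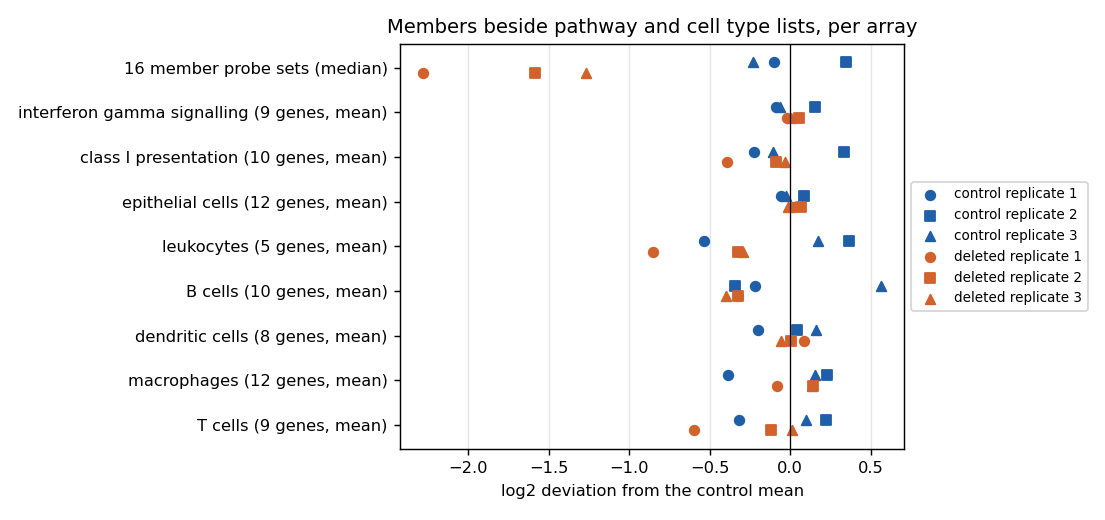
Deviation from the control mean on the log2 scale (x axis) for the median of the 16 members and for the mean of 8 gene lists (y axis), with 1 point per array, controls in blue, deleted arrays in orange and a marker shape for each replicate number. The members lie at −2.28, −1.58 and −1.27 on the deleted arrays, and no list falls below −0.85. Dim genes, whose changes can be understated, make up 8 of 10 B cell, 5 of 8 dendritic cell and 5 of 12 macrophage genes.

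The genes most like class II were sought among 1920 genes whose range over the arrays was at least 1 log2 unit, by the correlation with the mean of H2-Aa, H2-Ab1, H2-Eb1 and Cd74. The groups form separate clusters, so over 6 arrays r chiefly ranks genes by how cleanly they separate them, and no p is given. Fer1l6, of the ferlin family, came first (r = 0.99), and read 7.72, 8.17 and 7.79 on control arrays against 6.70, 7.10 and 7.24 on deleted arrays. Clca1, a secreted protein of goblet cell mucus, followed (r = 0.98) and read 12.61, 13.03 and 12.78 against 11.54, 11.73 and 11.85. Tpsg1, Sidt1, Gnat2, Snord89, Armh4 and Serpina1b made up the 8, with r between 0.96 and 0.98 and differences between −1.37 and −0.64, all smaller in size than those of H2-Aa, H2-Ab1, H2-Eb1 and Cd74. Serpina1b belongs to a family of near-identical genes, so its probe set may read several of them. By deviations from the group means, Fer1l6 was the only 1 of the 8 that stayed among the first 8 (r = 0.97).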

How the data were processed

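The authors deposited log2 expression values. The submitters' processing notes name RMA, the robust multi-array average, and its version, settings and build were not given in the sources used here. From lowest to highest the values spanned 1.13 to 14.10, and the median of an array lay between 4.85 and 4.91. The table has no detection calls, and precision is limited by the number of arrays. Of 45101 probe sets, 64 manufacturer controls were left out. By the platform annotation, 34945 of the rest name 1 gene, 932 several genes and 9160 no gene.

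Deleted minus control was fitted on all 45037 probe sets, since some members carry several genes, by limma 3.58.1 in R 4.3.3 (lmFit, eBayes, two-sided) and Benjamini-Hochberg adjustment at 0.05. Differences carry the standard error (SE) of that fit. A gene outside the members was read from its single-gene probe set with the highest mean. P-values measure the spread between animals. On simulated data with 200 of 45037 probe sets changed, 52.2% of changes of 1 on the log2 scale and 91.2% of changes of 2 were recovered, with 3.8% false calls. The changed probe sets were drawn at random and the noise was independent between probe sets, so these shares need not hold for the members.

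The members, gene lists and alternatives were chosen with earlier results of these data known. Named genes are the members, genes that passed, up to 3 of each pathway list with the smallest p, fixed cell markers and the 8 most alike. H2-Ea, H2-Eb2, Irf1, Ifng, Ctss, Nlrc5, Cdx1, Cd79b, Casp8, the chromosomal neighbours and the promoter motifs were added after their values or letters were seen. Alternatives were the replicate number as a block, a filter on dim probe sets, 1 probe set per gene, leaving out cross-hybridising probe sets, array weights, a robust prior with a variance trend, repeated quantile normalisation, median centring, the Gapdh difference as a covariate and leaving out arrays. Python 3.11.15, pandas 2.3.3, numpy 2.4.6 and matplotlib 3.10.9 were used. Some genes of the lists were not analysed here.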

Additional observations from a re-analysis of the deposited data

How the results depend on the processing

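For all members together, 223 of 237 differences under the alternatives were negative, and they ran from −2.44 to 0.26. The second H2-DMa probe set (1459872_x_at) stayed positive when 1 array was left out, from 0.11 to 0.26. For the 12 probe sets of class II chains, Cd74 and H2-DM that separated the groups, all 180 were negative, from −2.44 to −1.31. Probe sets whose groups do not overlap keep a negative difference whichever arrays are left out, so there their sign is no test. The median difference of the members ranged from −2.02 to −1.48 when 1 array was left out. The number of calls depended on the setting. Against 143 probe sets called, 277 were called without dim probe sets, 242 with a variance trend and robust prior, 1180 with array weights, 26 with the Gapdh covariate and 1 with control arrays 1 and 2 left out, where a lone control is assumed to vary like the deleted group. Leaving out 1 array gave 18 to 190. Against 5 members called, the same settings gave 11 of 13, 10, 13, 0 and 0, a repeated quantile normalisation 9, leaving out _x_at and _s_at probe sets 1, and leaving out 1 array 0 to 8. Of the cell type markers, 1 was called, and 0 with the replicate block, the Gapdh covariate or control arrays 1 and 2 left out, and 0 to 1 when 1 array was left out. Of the pathway genes 0 were called in any of these settings. Deviations from the group means kept 1 of the 8 genes most like the members. With the replicate block, 112 probe sets and 7 members were called. Deviations of same-numbered arrays correlated at 0.074, 0.084 and −0.055. With 3 arrays per group these values cannot decide whether same-numbered animals belong together, and the labels do not say.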
